A study of Mus musculus with 2 samples.

Results

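The 8 genes described here, Aqp4, Kcnj10, Kcnj16, Gja1, Gjb6, Atp1b2, Slc4a4 and Mlc1, encode the potassium, water and gap junction channels and the ion transporters by which astrocytes buffer the fluid around neurons. They were chosen by name from astrocyte biology, with earlier results of these data known, so the choice was not independent of the data. Each matched exactly 1 of the 32285 genes listed in both deposited matrices. The data are single-nucleus RNA-seq counts from the ventral tegmental area (VTA), a midbrain region that holds dopaminergic, GABAergic and glutamatergic neurons, in adult mice. The CCI library came from mice with chronic constriction injury, a neuropathic pain model in which the left sciatic nerve was ligated and the right one exposed only, and the WT library came from wild-type mice. No strain, sex, exact age, time after injury, hemisphere, number of pooled animals or sham surgery is stated for either library, and the tissue protocol describes enzymatic dissociation, whereas the series design speaks of nuclei. There was 1 library per condition, so no replicate spread exists and no test between CCI and WT was made. Every interval given is an exact 95% interval for counting error of unique molecular identifiers (UMIs) alone, and every difference describes these 2 libraries.

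Active neurons release potassium, which astrocytes take up through an inwardly rectifying channel encoded by Kcnj10, alone or in a heteromer with the Kcnj16 subunit, and by a sodium pump that uses the beta subunit encoded by Atp1b2. Gja1 and Gjb6 encode connexins that join astrocytes into a network through which potassium and metabolites spread. Aqp4 encodes the water channel that is concentrated on astrocyte endfeet around blood vessels, Mlc1 encodes an endfoot membrane protein that takes part in volume regulation and whose loss causes a leukoencephalopathy in humans, and Slc4a4 encodes an electrogenic sodium-bicarbonate cotransporter that couples membrane depolarization to pH.

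Promoter windows were present in the RefSeq table (GRCm38.p6) for 6 of the 8 genes. The 250 bases upstream of the start are shown for Kcnj10, which was also abundant in oligodendrocytes, and for the connexin genes Gja1 and Gjb6, which were not. Capitals mark matches, on either strand, to the GC box GGGCGG or the CCAAT box CCAAT.
Kcnj10 chr1:172340960-172341209 plus strand: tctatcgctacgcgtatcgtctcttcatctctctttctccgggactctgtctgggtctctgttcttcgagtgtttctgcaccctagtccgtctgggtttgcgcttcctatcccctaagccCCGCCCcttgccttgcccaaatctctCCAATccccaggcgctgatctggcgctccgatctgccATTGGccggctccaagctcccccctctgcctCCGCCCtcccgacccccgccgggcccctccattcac
Gja1 chr10:56377050-56377299 plus strand: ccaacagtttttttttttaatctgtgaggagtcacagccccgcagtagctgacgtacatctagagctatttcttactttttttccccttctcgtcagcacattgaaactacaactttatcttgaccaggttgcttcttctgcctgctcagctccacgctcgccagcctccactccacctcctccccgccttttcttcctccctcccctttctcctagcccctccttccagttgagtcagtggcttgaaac
Gjb6 chr14:57133612-57133861 minus strand: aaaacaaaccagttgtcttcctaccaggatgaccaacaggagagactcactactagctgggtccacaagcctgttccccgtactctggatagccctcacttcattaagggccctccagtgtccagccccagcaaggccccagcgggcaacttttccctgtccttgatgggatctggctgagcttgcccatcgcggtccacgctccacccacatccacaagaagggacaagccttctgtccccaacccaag
The Kcnj10 window held 2 GC boxes and 2 CCAAT boxes, and the Gja1 and Gjb6 windows held neither. None of these 3 windows contained TATAAA or the nuclear factor I palindrome. The boxes were not particular to Kcnj10 within the group. A Slc4a4 window held 1 GC box, its other window held 1 CCAAT box, and the Mlc1 window held 1 CCAAT box. A Kcnj16 window held 1 GC box and 1 CCAAT box. These 3 genes had far lower levels in oligodendrocytes than in astrocytes. Over 32851 mouse promoter windows of the same length, searched on both strands, 32.7% held GGGCGG, 33.8% held CCAAT, 12.4% held TATAAA and 0.0365% held the palindrome. The palindrome ends in the letters CCAA and so can share bases with a CCAAT match. A match describes letters in this window only.

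The CCI library held 13736 barcodes with a median of 3652 UMIs, and the WT library held 14114 barcodes with a median of 975 UMIs. After filtering and removal of predicted doublets, 12802 CCI nuclei and 12128 WT nuclei remained, with 31818 and 8774 UMIs of the 8 genes. The libraries shared 54 barcode sequences, 37 of them kept in both. Nuclei were clustered with the 8 genes left out of the clustering features, and clusters were named from other markers. The clusters named as astrocyte-like, called astrocytes here, contained 1483 CCI nuclei with a median of 2324 UMIs and 1263 WT nuclei with a median of 756 UMIs. All 14 of their markers were detected in both libraries, and the summed markers reached 17739 CPM in CCI astrocytes and 16132 CPM in WT astrocytes. A level in CPM is the UMIs of a gene divided by the UMIs of all genes in the summed nuclei of a class and library, on the usual CPM scale. Most astrocytes of each library lay in a different cluster: cluster 5 held 1381 CCI and 134 WT nuclei, and cluster 6 held 102 CCI and 1129 WT nuclei.

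On mouse build mm10 the genes lie on 7 chromosomes. Kcnj10 is on chromosome 1 (172341210-172374085, plus strand), Slc4a4 on chromosome 5 (88886818-89239653, plus), Gja1 on chromosome 10 (56377330-56402513, plus), Atp1b2 on chromosome 11 (69599736-69605942, minus), Kcnj16 on chromosome 11 (110968033-111027968, plus), Gjb6 on chromosome 14 (57123303-57133611, minus), Mlc1 on chromosome 15 (88955884-88979007, minus) and Aqp4 on chromosome 18 (15389496-15410982, minus). In the GENCODE M21 annotation no exon of the 8 genes overlapped an exon of another gene on either strand. The genes span between 6207 bases for Atp1b2 and 352836 bases for Slc4a4, and counts at the 3′ end of transcripts do not allow levels of different genes to be set against each other.

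Astrocytes held most of the UMIs of Aqp4, Kcnj16, Gja1, Gjb6, Slc4a4 and Mlc1 in both libraries. Oligodendrocytes held the largest share of Kcnj10, and Atp1b2 was divided between astrocytes and neurons. Of all UMIs of the 8 genes, 68.6% (68.1 to 69.1) lay in astrocytes in the CCI library and 64.4% (63.4 to 65.4) in the WT library, although astrocytes were 11.6% and 10.4% of the nuclei. Slc4a4 supplied 71.7% of the astrocytic UMIs of the group in CCI and 71.9% in WT, so the sum mainly follows that gene. Without Slc4a4 the astrocytic share was 59.5% in CCI and 53.0% in WT. Because a class with more nuclei or deeper nuclei takes a larger share, levels per class follow.

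**Figure D1:**
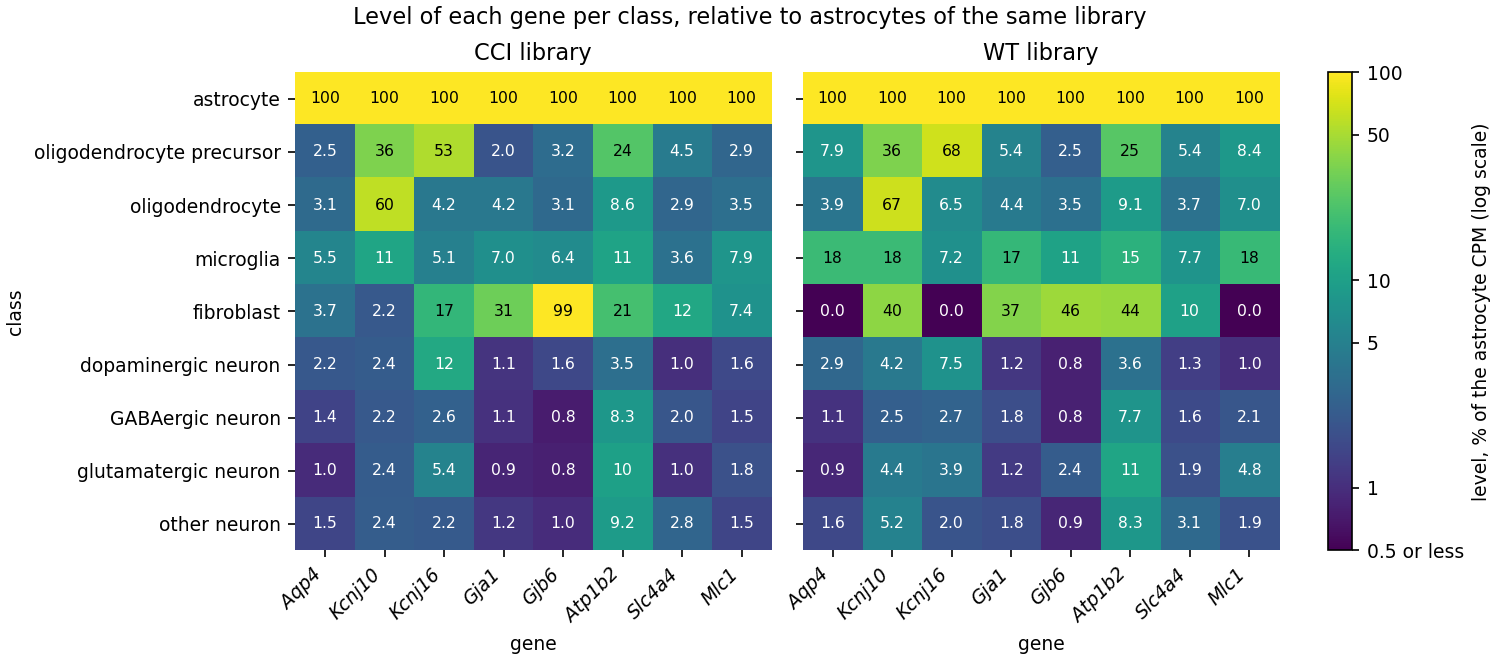
Level of each of the 8 genes in 9 cell classes as a percentage of the astrocyte CPM of the same library, CCI on the left and WT on the right, on a logarithmic colour scale. Kcnj10 reached 60.0% and 67.2% in oligodendrocytes and Kcnj16 reached 52.9% and 68.1% in oligodendrocyte precursors (CCI and WT), while Aqp4 stood at 1.47% and 1.65% and Gja1 at 1.10% and 1.63% in neurons.

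Kcnj10, the inwardly rectifying channel that carries most astrocytic potassium uptake and is also known from oligodendrocytes, was the gene of the group least restricted to astrocytes. Its level was 237 CPM (222 to 253) in CCI astrocytes and 220 CPM (192 to 251) in WT astrocytes. In oligodendrocytes it was 142 CPM (134 to 151) in the CCI library and 148 CPM (134 to 162) in the WT library, below the astrocytes of the same library with no overlap of the intervals. Because oligodendrocytes outnumbered astrocytes, they held 45.9% of Kcnj10 UMIs in CCI and 52.0% in WT, against 37.3% and 26.3% in astrocytes. Each of the 4 oligodendrocyte clusters carried it: the level ranged between 101 and 166 CPM over the clusters in CCI and between 119 and 190 CPM in WT. Oligodendrocyte precursors stood lower, at 85.1 CPM (69.8 to 103) in CCI and 78.7 CPM (55.4 to 109) in WT. Committed precursors lay next to them, at 86.3 CPM in CCI and 101 CPM in WT, from 22 and 217 nuclei, and their intervals overlapped those of the precursors. Neurons were last among the large classes, with 5.54 CPM (4.89 to 6.25) in CCI and 9.67 CPM (7.91 to 11.7) in WT.

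Kcnj16, the subunit that assembles with the Kcnj10 channel and makes it sensitive to pH, had its highest levels in astrocytes and oligodendrocyte precursors. By share of UMIs, the more numerous neurons held more of it than the precursors, 25.6% against 10.2% in CCI and 17.7% against 16.1% in WT. It reached 61.7 CPM (54.0 to 70.2) in CCI astrocytes and 62.5 CPM (48.0 to 80.0) in WT astrocytes. Oligodendrocyte precursors had 32.6 CPM (23.4 to 44.3) in CCI and 42.6 CPM (26.0 to 65.7) in WT, from 41 and 20 UMIs. The precursor interval lay below the astrocyte interval in CCI and overlapped it in WT. Mature oligodendrocytes held only 2.60 CPM in CCI and 4.04 CPM in WT, so Kcnj10 was abundant there without a matching level of Kcnj16. Among neurons, the dopaminergic class had the highest Kcnj16 level, 7.52 CPM (4.96 to 10.9) in CCI and 4.67 CPM (2.13 to 8.86) in WT, from 27 and 9 UMIs. In CCI this interval lay above that of GABAergic neurons, 1.60 CPM (0.977 to 2.47), whereas in WT it overlapped theirs, 1.67 CPM (0.455 to 4.28). The glutamatergic interval overlapped the dopaminergic one in both libraries, at 3.32 CPM (2.08 to 5.03) in CCI and 2.43 CPM (0.294 to 8.76) in WT.

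Aqp4, the endfoot water channel, was concentrated in astrocytes. Astrocytes held 78.1% of its UMIs in CCI (1063 of 1361) and 72.0% in WT (270 of 375). Its level in astrocytes was 283 CPM (266 to 300) in CCI and 268 CPM (237 to 302) in WT. Neurons had 1.47% of the astrocyte level in CCI and 1.65% in WT, and oligodendrocytes had 3.12% and 3.90%. Mlc1, the endfoot protein of volume regulation, stood at 139 CPM (127 to 152) in CCI astrocytes and 101 CPM (82.5 to 123) in WT astrocytes. Neurons reached 1.57% of its astrocyte level in CCI and 2.00% in WT.

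Both connexin genes were high in astrocytes, and Gjb6 also in fibroblasts. Gja1 stood at 402 CPM (382 to 423) in CCI astrocytes and 395 CPM (357 to 436) in WT astrocytes. Its neuronal level was 1.10% of that in CCI and 1.63% in WT. Gjb6 stood at 245 CPM (229 to 261) in CCI astrocytes and 257 CPM (227 to 290) in WT astrocytes, and astrocytes held 79.3% and 79.2% of its UMIs. The fibroblast-like nuclei, 71 in CCI and 40 in WT, had 243 CPM of Gjb6 (179 to 324, 47 UMIs) in CCI and 118 CPM (32.3 to 303, 4 UMIs) in WT. The CCI fibroblast interval overlapped that of CCI astrocytes. Gja1 in the same nuclei was 124 CPM (79.6 to 185) in CCI and 148 CPM (48.1 to 345) in WT. Aqp4 reached only 2 UMIs in the CCI fibroblasts and 0 in the WT fibroblasts (a count of 0 allows up to 88.8 CPM, taking 3 counts as the limit). The fibroblast cluster that held 53 of the CCI and 28 of the WT nuclei was led by Slc6a20a, Bmp6, Cped1, Colec12 and Ranbp3l.

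Atp1b2, the beta subunit of the sodium pump that glia use, was the gene of the group with the highest relative level in neurons. Astrocytes had 274 CPM (257 to 291) in CCI and 271 CPM (240 to 305) in WT. Neurons had 23.8 CPM (22.4 to 25.2) in CCI and 20.4 CPM (17.8 to 23.3) in WT, which is 8.68% and 7.55% of the astrocyte level. Because neurons were numerous and deeply sequenced, they held 45.5% of Atp1b2 UMIs in CCI and 35.8% in WT, against 41.7% and 44.0% in astrocytes. Dopaminergic neurons were lower than the other neuron classes, with 9.47 CPM (6.56 to 13.2) in CCI and 9.86 CPM (5.93 to 15.4) in WT, and glutamatergic neurons were at 27.9 CPM (24.0 to 32.2) and 30.3 CPM (19.6 to 44.7). The intervals of these 2 classes did not overlap in either library. Oligodendrocyte precursors held 66.0 CPM of Atp1b2 in CCI and 68.1 CPM in WT, which is 24.1% and 25.1% of the astrocyte level.

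Slc4a4, the sodium-bicarbonate cotransporter, had most of its UMIs in astrocytes, 73.0% in CCI and 70.4% in WT. Its level there was 4164 CPM (4099 to 4230) in CCI astrocytes and 4035 CPM (3911 to 4160) in WT astrocytes. Neurons as a whole had 92.4 CPM (89.6 to 95.1) in CCI and 95.3 CPM (89.6 to 101) in WT, 2.22% and 2.36% of the astrocyte level. That average covered a wide range among neuron subclusters.

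**Figure D2:**
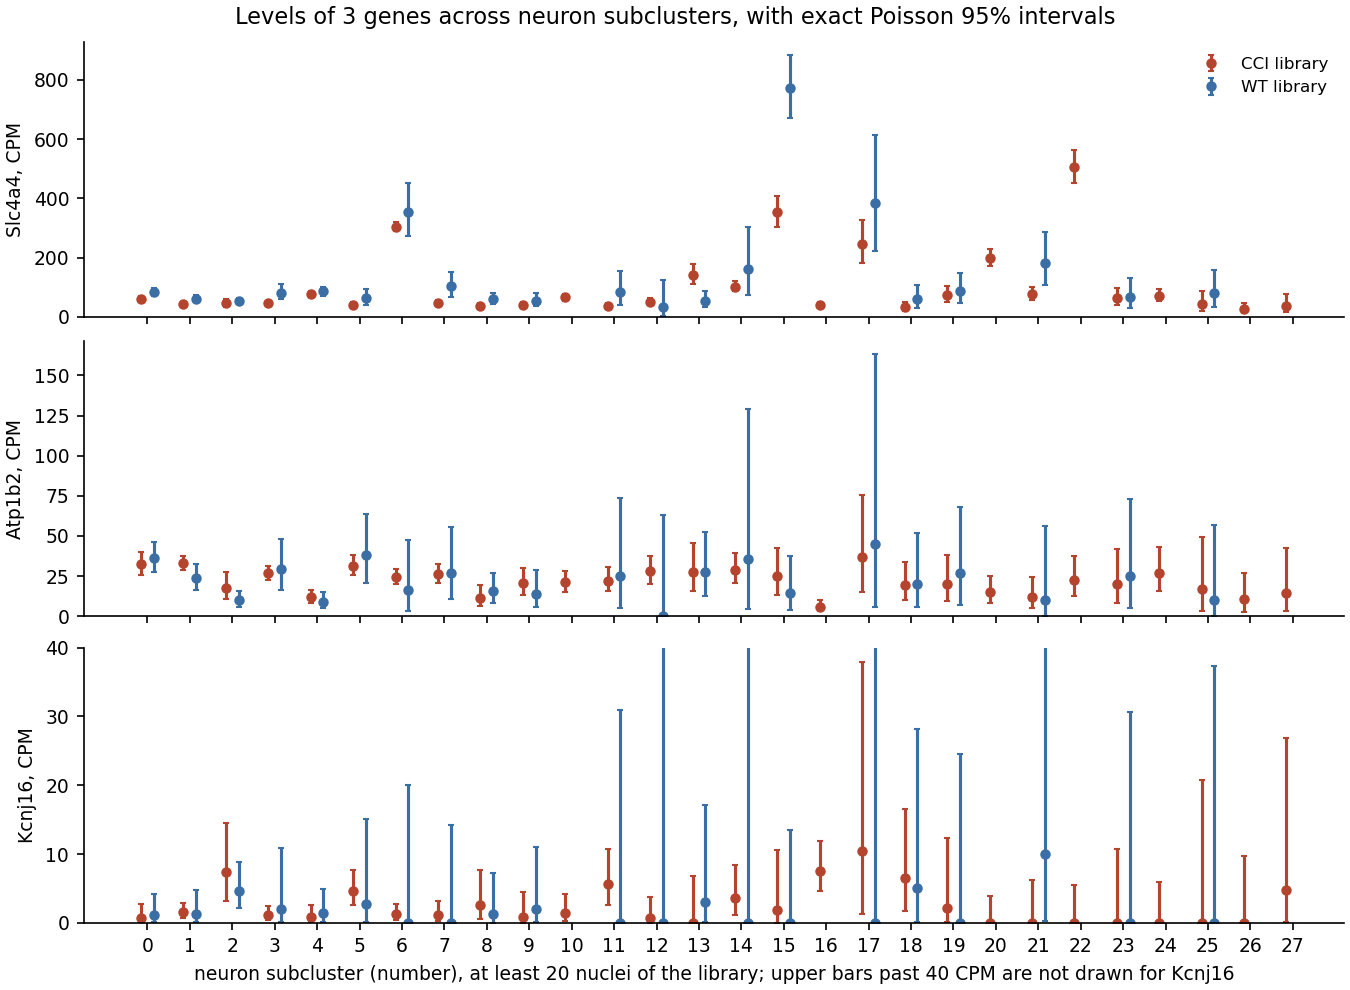
Levels of Slc4a4, Atp1b2 and Kcnj16 in CPM (3 panels) across neuron subclusters, numbered by size, with exact 95% intervals; CCI points stand left of WT points, a point is drawn where a library had at least 20 nuclei, and bars of Kcnj16 past 40 CPM are cut off. Slc4a4 reaches 505 CPM in CCI subcluster 22 and 773 CPM in WT subcluster 15, against medians of 56.0 and 81.8 CPM over the subclusters.

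Over the neuron subclusters with at least 20 nuclei, Slc4a4 had a median of 56.0 CPM and a range of 26.3 to 505 CPM in CCI (28 subclusters), and a median of 81.8 CPM and a range of 34.1 to 773 CPM in WT (21 subclusters). The subcluster numbered 6, led by Synpo2, Plekhg1 and Lef1, had 304 CPM (289 to 320) in CCI and 354 CPM (273 to 451) in WT. Subcluster 15, led by Slit3, Glis3 and Nfib, had 354 CPM (305 to 408) in CCI and 773 CPM (673 to 884) in WT. Subcluster 22, led by Pdzd2, Pax3 and Kctd8 and placed among GABAergic neurons, had 505 CPM (453 to 562) from 109 CCI nuclei and too few WT nuclei for a level. Relative to astrocytes of the same library, Slc4a4 reached 7.30% in CCI and 8.77% in WT in subcluster 6, 8.50% and 19.2% in subcluster 15, and 12.1% in CCI in subcluster 22. A further GABAergic subcluster, numbered 20 and seen in CCI alone, stood at 198 CPM (170 to 228). Aqp4 in subcluster 6 was at 1.08% of its astrocyte level in CCI, close to the 1.47% of neurons as a whole, and had 0 UMIs in WT. Gja1 there was at 0.965% in CCI. In subcluster 22 Gjb6 and Mlc1 had 0 UMIs, but CCI neurons as a whole had only 2.31 and 2.18 CPM of them, so these zeros say little. Aqp4 and Gja1 in subcluster 15 are not reported here. Subcluster 17, which had 246 CPM in CCI and 384 CPM in WT, was shallow, with median depths of 783.5 and 565.5 UMIs, and was led by haemoglobin genes. Dopaminergic neurons lay at the low end, with 42.6 CPM (36.1 to 49.9) in CCI and 53.9 CPM (44.1 to 65.4) in WT.

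In microglia, where these genes were low, each of the 8 had a lower level in CCI than in WT, but most rested on few UMIs. For Kcnj10, Kcnj16, Gjb6, Atp1b2 and Mlc1 the interval included a ratio of 1, and Kcnj16 had 2 and 1 UMIs. The share of all microglial genes lower in CCI at any fold was not counted. Their median log2 ratio, over genes with at least 20 UMIs, was 0.11. The 8 genes summed to 280 CPM (241 to 324) in CCI microglia and 558 CPM (464 to 665) in WT microglia, 4.83% and 9.94% of the astrocyte level, from 179 and 124 UMIs. Of the 8 genes, 5 had at least 20 UMIs there, and Aqp4, Gja1 and Slc4a4 were lower in CCI by more than 1.5-fold with an interval that excludes a ratio of 1, where 21.3% of all genes with at least 20 UMIs in microglia were past that line in one direction or the other. Markers of other cells moved with them: in microglia the 14 astrocyte markers summed to 980 CPM in CCI and 2101 CPM in WT, the 11 oligodendrocyte markers to 1192 and 2649 CPM, and the 10 neuron markers to 6852 and 11515 CPM. The 10 microglia markers summed to 9757 CPM in CCI and 4872 CPM in WT. Median depths were 1447 UMIs in CCI microglia and 604 UMIs in WT microglia. The part of these markers and of depth in the lower levels was not tested.

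The astrocyte is the class in which CCI and WT were compared in depth, since the series concerns neuropathic pain and these genes act in astrocytes. Levels in CCI astrocytes and WT astrocytes were close for 7 of the 8 genes, and Mlc1 was the single gene of the 8 whose counting interval lay clear of a ratio of 1, as did those of 16.6% of all genes with at least 20 UMIs. A gene was counted as past the line when its CPM ratio exceeded 1.5-fold in either direction and its interval excluded a ratio of 1. None of the 8 genes met this, where 1148 of 12191 genes with at least 20 UMIs in astrocytes (9.42%) did, 5.2% higher and 4.22% lower in CCI. All 8 genes had at least 20 UMIs. The median log2 ratio of CCI over WT was 0.04 over the 8 genes and 0.04 over all 12191 genes. Their sum was 5806 CPM (5729 to 5883) in CCI and 5609 CPM (5464 to 5757) in WT, a log2 ratio of 0.05 (0.01 to 0.09).

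**Figure D3:**
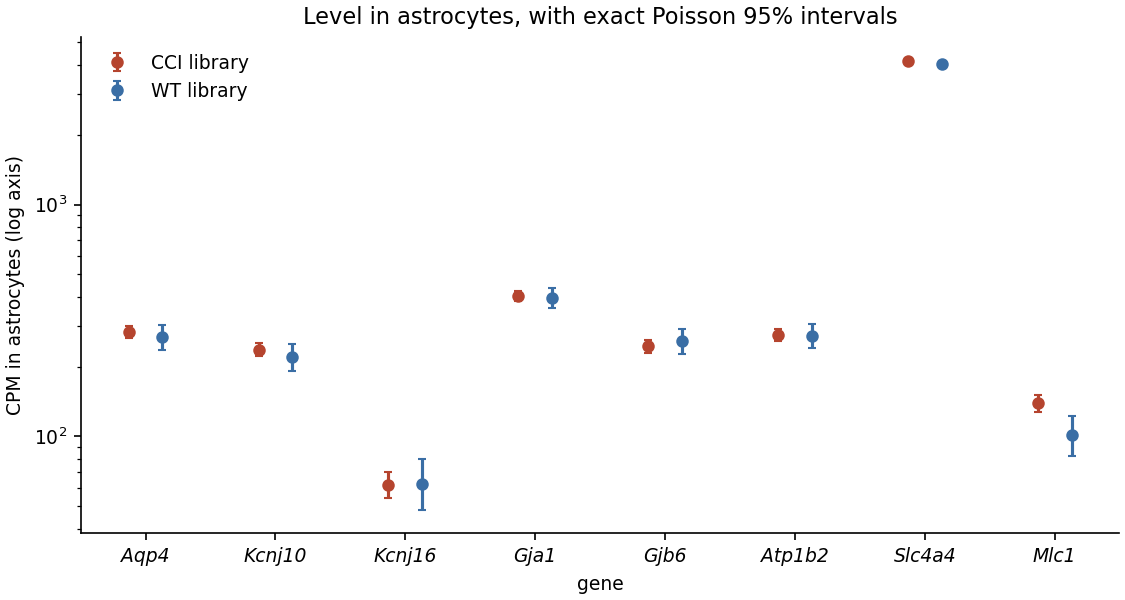
Level of each gene in CPM, on a logarithmic axis, in CCI astrocytes (left point of each pair) and WT astrocytes (right point), with exact Poisson 95% intervals. The intervals overlap for Aqp4, Kcnj10, Kcnj16, Gja1, Gjb6, Atp1b2 and Slc4a4, and Mlc1 stands at 139 CPM in CCI and 101 CPM in WT.

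For the potassium channel genes, the log2 ratio was 0.11 (-0.11 to 0.32) for Kcnj10, from 891 UMIs in CCI and 222 in WT, and -0.02 (-0.43 to 0.41) for Kcnj16, from 232 and 63 UMIs. The interval of Kcnj16 was the widest of the group. Aqp4 had a ratio of 0.08 (-0.12 to 0.28), from 1063 UMIs in CCI and 270 in WT. The connexin genes gave 0.03 (-0.13 to 0.19) for Gja1, from 1511 and 398 UMIs, and -0.07 (-0.27 to 0.14) for Gjb6, from 921 and 259 UMIs. Atp1b2 gave 0.02 (-0.18 to 0.21), from 1030 and 273 UMIs. Slc4a4, with 15656 UMIs in CCI and 4067 in WT, had the narrowest interval, 0.05 (-0.0042 to 0.096). In the pooled astrocytes the counting interval of these 7 genes included a ratio of 1, and it also excluded a 1.5-fold difference. Within single astrocyte clusters this did not hold for all of them, as given below.

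Mlc1 had 523 UMIs in CCI astrocytes and 102 in WT astrocytes, and its log2 ratio was 0.46 (0.15 to 0.78), a level 1.37-fold that of WT. The interval excluded a ratio of 1 and included 1.5-fold. The ratio was past 1.5-fold under 3 of 15 other settings, at 0.59 with at least 500 genes per nucleus, 0.75 with astrocytes thinned to 1000 UMIs and 1.16 without doublet removal, which left 99 WT astrocytes. The ratio was positive in both astrocyte clusters, at 0.79 (-0.03 to 1.75) in cluster 5 and 0.26 (-0.49 to 0.94) in cluster 6, with both intervals including 0, and no replicate library was there to set against it. Beside it, the 9 ependymal markers summed to 54.8 CPM in CCI astrocytes and 11.9 CPM in WT astrocytes, with Ccdc153, Tmem212 and Dnah6 at 0 in WT, and the 14 astrocyte markers had a log2 ratio of 0.14. The part of these lists in the Mlc1 ratio was not tested.

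**Figure D4:**
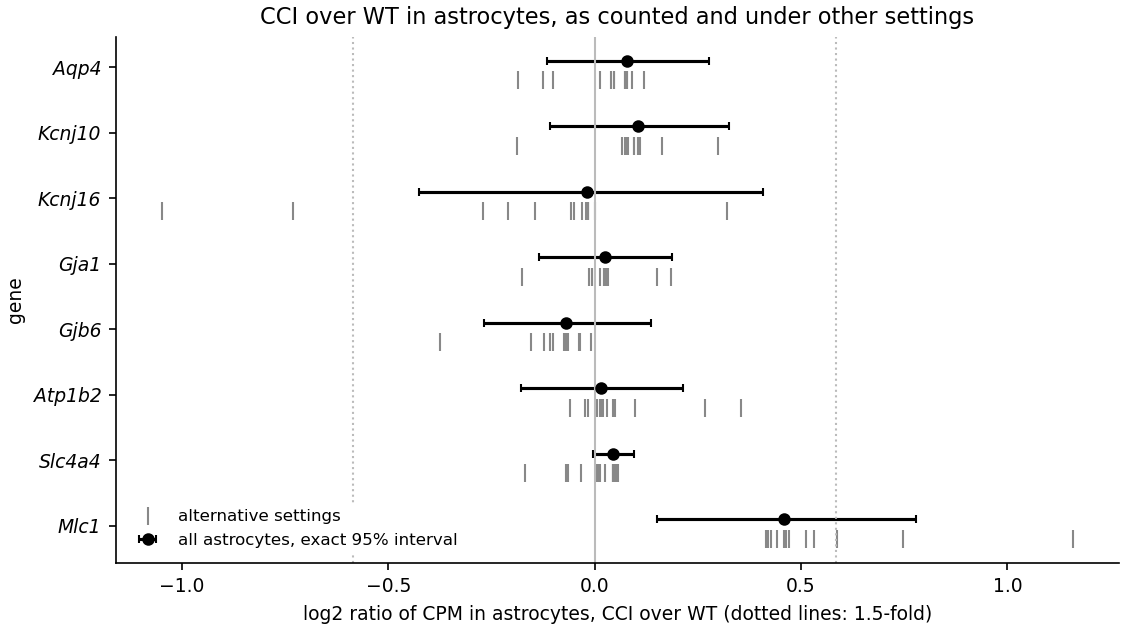
Log2 ratio of CPM in astrocytes, CCI over WT, for each gene, with exact 95% intervals (points and bars) and the ratios under the other settings (grey ticks); dotted lines mark 1.5-fold. The point of Mlc1 lies at 0.46, and those of the other 7 genes lie between -0.07 and 0.11.

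Because CCI astrocytes fell mostly in cluster 5 and WT astrocytes mostly in cluster 6, the comparison was also made within each cluster. In cluster 5 the sum of the 8 genes was 5862 CPM in CCI and 6016 CPM in WT, a log2 ratio of -0.04 (-0.13 to 0.06). In cluster 6 it was 4654 CPM in CCI and 5539 CPM in WT, a ratio of -0.25 (-0.36 to -0.14). There, Slc4a4 was lower in CCI, at 3233 CPM (2973 to 3510) against 3971 CPM (3839 to 4107) in WT, and so was Gja1, at 284 CPM (211 to 375) against 397 CPM (356 to 441) in WT. Cluster 6 holds only 102 CCI nuclei, 6.88% of the CCI astrocytes, and their median depth was 1450.5 UMIs, against 2377 UMIs in the CCI nuclei of cluster 5. Both within-cluster values had the opposite sign to the pooled ratio of 0.05, and the interval in cluster 5 included 0.

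Markers of some other classes in the astrocyte nuclei differed between the libraries, and those of others were close. The 11 oligodendrocyte markers summed to 926 CPM in CCI astrocytes and 3023 CPM in WT astrocytes. The 10 dopaminergic markers summed to 800 and 1773 CPM, with all markers of both lists detected in both libraries. The dopaminergic list includes Aldh1a1, which was among the leading genes of astrocyte cluster 6, where most WT astrocytes lay. The sum of that list is therefore not a measure of RNA from other cells alone. The committed precursor, oligodendrocyte precursor, GABAergic and fibroblast lists had log2 ratios of 0.0043, -0.04, -0.03 and -0.10, with intervals that included 0. The neuron list had -0.16 and the microglia list -0.49, while the glutamatergic list was higher in CCI, at 0.51. Mitochondrially encoded genes summed to 1505 CPM in CCI and 2008 CPM in WT. In neurons, where the oligodendrocyte markers summed to 359 CPM in CCI and 1231 CPM in WT, Kcnj10 was the only 1 of the 8 genes past 1.5-fold, lower in CCI with a log2 ratio of -0.80 (-1.14 to -0.46). In neurons 11.5% of all genes were past that line. Most neurons of each library lay in different clusters, with 3725 CCI and 104 WT nuclei in cluster 1 and 343 CCI and 3706 WT nuclei in cluster 0. Within clusters the Kcnj10 ratio was -1.12 (-3.00 to 1.95) in cluster 1 and 0.60 (-0.24 to 1.37) in cluster 0. Of 8 neuron clusters with UMIs in both libraries, 7 had a lower level in CCI, and in 0 of the 8 did the interval exclude a ratio of 1. The part of the oligodendrocyte transcripts in the neuronal Kcnj10 level was not tested. Gja1 in neurons had a ratio of -0.54 (-0.94 to -0.13), short of 1.5-fold.

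The pooled neuronal ratio of Slc4a4, -0.05 (-0.14 to 0.05), covered opposite values in 2 neuron classes. In glutamatergic neurons Slc4a4 had 43.3 CPM in CCI and 75.2 CPM in WT, a log2 ratio of -0.80 (-1.20 to -0.38). It was 1 of 7 genes with at least 20 UMIs there to be past 1.5-fold, where 6.06% of all genes were. All 3 glutamatergic subclusters had a lower level in CCI, and the interval excluded a ratio of 1 in 1 of them. In GABAergic neurons Slc4a4 had 85.2 CPM in CCI and 66.4 CPM in WT, a ratio of 0.36 (0.12 to 0.61), and none of the 8 genes was past 1.5-fold, where 10.3% of all genes were. Yet 5 of the 6 GABAergic subclusters with at least 20 nuclei in each library had a lower level in CCI, and the interval excluded a ratio of 1 in 3 of them. The other, subcluster 13, was higher in CCI, at 142 CPM against 55.4 CPM in WT (1.36, 0.61 to 2.19). Subclusters 20 and 22, with 198 and 505 CPM, held 134 and 109 CCI nuclei against 0 and 2 WT nuclei. The oligodendrocyte markers summed to 375 CPM in CCI and 1227 CPM in WT in glutamatergic neurons, and the astrocyte markers to 875 and 897 CPM. In GABAergic neurons, where pooled Slc4a4 was higher in CCI, both lists were also lower in CCI. There the oligodendrocyte markers summed to 354 CPM in CCI and 1110 CPM in WT, and the astrocyte markers to 896 and 1148 CPM. The part of these markers in the Slc4a4 level of either class was not tested. The difference between the 2 classes was not tested either.

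In oligodendrocytes none of the 8 genes was past 1.5-fold, where 9.76% of all genes were. Slc4a4 was lower in CCI, short of that line, with a log2 ratio of -0.32 (-0.49 to -0.16), and the sum of the 8 genes had -0.18 (-0.29 to -0.08). Of the 4 oligodendrocyte clusters, 3 had a lower Slc4a4 level in CCI, and the interval excluded a ratio of 1 in 2 of them. Kcnj10, the member that is abundant there, had a log2 ratio of -0.06 (-0.22 to 0.11), from 1095 UMIs in CCI and 439 in WT. Here too the libraries were divided between clusters, with 2286 CCI and 122 WT nuclei in cluster 3 and 359 CCI and 2548 WT nuclei in cluster 2. The ratio of Kcnj10 was -0.52 (-1.10 to 0.12) in cluster 3 and -0.0066 (-0.41 to 0.38) in cluster 2. In oligodendrocyte precursors 5 of the 8 genes had at least 20 UMIs, and none of these was past the line, where 6.98% of all genes with as many UMIs were. Aqp4, with too few UMIs to enter that count, had 7.16 CPM from 9 UMIs in CCI and 21.3 CPM from 10 UMIs in WT (-1.57, -3.05 to -0.12). In these nuclei the oligodendrocyte markers summed to 877 CPM in CCI and 2947 CPM in WT and the astrocyte markers to 3849 and 3652 CPM, and their part in the Aqp4 level was not tested. Kcnj10 and Kcnj16 in the precursors had ratios of 0.11 (-0.44 to 0.69) and -0.38 (-1.19 to 0.47).

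Slc4a4 was detected in most astrocytes and each other gene in a minority at a common depth. With every nucleus thinned to 500 UMIs, Slc4a4 had a UMI in 84.1% (82.1 to 85.9) of CCI astrocytes and 85.6% (83.5 to 87.5) of WT astrocytes. Gja1 was next, in 17.3% (15.4 to 19.3) of CCI and 19.2% (17.0 to 21.4) of WT astrocytes. Kcnj16 was found in 2.36% (1.65 to 3.27) and 2.77% (1.94 to 3.83). The intervals of CCI and WT overlapped for all 8 genes at this common depth. Without thinning, Aqp4 had a UMI in 43.6% of CCI astrocytes and 18.7% of WT astrocytes, and Mlc1 in 28.1% and 7.76%, at median depths of 2324 and 756 UMIs.

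**Figure D5:**
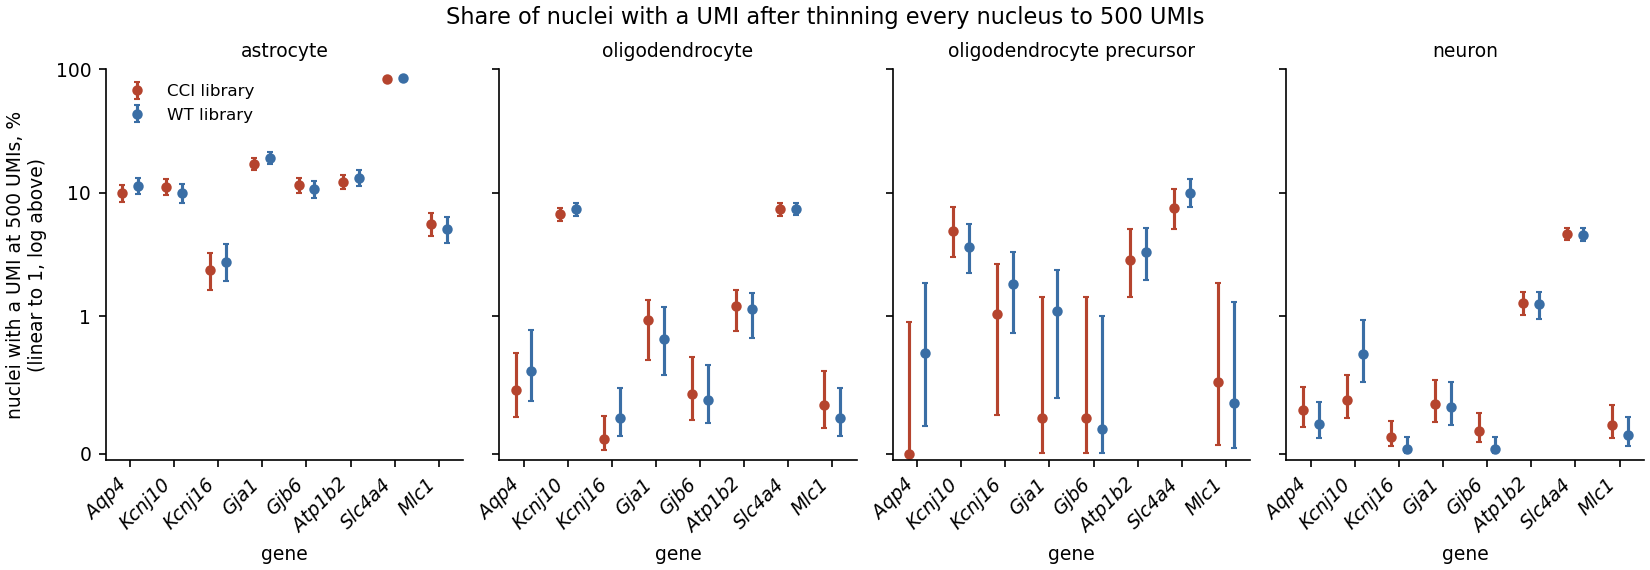
Percentage of nuclei with at least 1 UMI of each gene after thinning every nucleus to 500 UMIs, in 4 cell classes, CCI left and WT right in each pair, with exact Clopper-Pearson 95% intervals; the axis is linear to 1 and logarithmic above. Slc4a4 is found in 84.1% and 85.6% of astrocytes and in 4.67% and 4.58% of neurons.

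Neurons, which should lack the water channel and the connexins, gave the background for these shares at the same depth. Aqp4 had a UMI in 0.316% of CCI neurons and 0.219% of WT neurons, against 9.98% and 11.4% in astrocytes. Gja1 was in 0.362% and 0.337% of neurons. Kcnj10 stood above that background in oligodendrocytes, with 6.74% of CCI and 7.34% of WT nuclei, whereas Aqp4 was in 0.460% and 0.603% of them.

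Within a nucleus, UMIs of the 8 genes were sparse and weakly correlated. At 500 UMIs per nucleus, 92.8% of CCI astrocytes and 93.5% of WT astrocytes had a UMI of at least 1 of the genes, and 46.3% and 47.4% had UMIs of 2 or more. Across the 1483 CCI nuclei, Pearson r over the 28 gene pairs lay between -0.07 and 0.05, and across the 1263 WT nuclei between -0.04 and 0.08. In counts this sparse, from nuclei that share a library, a weak correlation is no finding. The variance over the mean of Slc4a4 was 1.21 in CCI and 1.10 in WT, and that of Gjb6 was 0.992 and 1.01.

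The patterns of the 8 genes across cell classes were compared with each other and with other genes. Over 5 classes in 2 libraries, 10 points that share their nuclei's depth and free RNA, the Pearson r of log2(CPM + 10) between Aqp4, Gja1, Gjb6, Slc4a4 and Mlc1 was 0.97 or higher for every pair. Kcnj10 stood apart, with r between 0.63 and 0.67 to the other 7. Kcnj16 also lay apart from those 5 genes, with r between 0.67 (Gja1) and 0.80 (Slc4a4), and was closest to Atp1b2 (0.93). Among 11633 other genes, the nearest pattern to Aqp4 and to Mlc1 was that of Etnppl, a phospholyase gene, at 0.99 for both. Kcnj10 was nearest to Hepacam, which encodes a glial cell adhesion molecule, also at 0.99. Kcnj16 was nearest to Mro, Gja1 to the sphingosine phosphate receptor gene S1pr1, Gjb6 to the thyroid hormone transporter gene Slco1c1, Atp1b2 to the glutamate transporter gene Slc1a2, and Slc4a4 to the acyl-CoA synthetase gene Acsbg1, with r between 0.98 and 1.00. The next 4 genes were Acsbg1, Sdc4, Atl2 and Nudt9 for Aqp4, Slc39a12, Cep85l, Egfr and Slc6a11 for Mlc1, Meis1, Megf10, Lrig3 and Gramd3 for Kcnj10, and Slc38a3, Wnt7b, Tril and Cyp7b1 for Kcnj16. They were Slc39a12, Etnppl, Cep85l and Acsbg1 for Gja1, Cep85l, Slc6a11, Fzd2 and Ppp1r3c for Gjb6, Cxcl14, Ppara, Ddhd1 and Pdgfd for Atp1b2, and Nhsl1, Slc6a11, Etnppl and Lrig1 for Slc4a4. Etnppl, Acsbg1, Slc39a12 and Slc1a2 were among the markers that named the astrocyte clusters.

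Of 65 other genes in 7 lists around the same functions, 52 had at least 20 UMIs in astrocytes; 2 were higher in CCI by the line above, 10 were lower and 40 were within it, where 9.42% of all genes were past it. Their median log2 ratio was -0.11, against 0.04 for all genes. Highest levels were looked for among the 5 classes with at least 50 nuclei in each library (astrocytes, neurons, oligodendrocytes, their precursors and microglia), without vascular cells and fibroblasts. The 17 measured genes whose level was highest in astrocytes had 1 higher, 1 lower and a median of 0.15, and the 35 genes with a higher level in another class had 1 higher, 9 lower and a median of -0.30. Beside this stand the sums of oligodendrocyte and dopaminergic markers given above, which were lower in CCI astrocytes. The precursor and GABAergic lists were close between the libraries, and the glutamatergic list was higher in CCI. The part of any of these lists in the lower genes was not tested.

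None of the 11 genes of the endfoot and dystrophin complex, which anchors the water channel at the vessel, was past the line. Dmd, encoding dystrophin, had 1519 CPM in CCI and 1443 CPM in WT (log2 ratio 0.07, -0.0096 to 0.16). Dtna, encoding alpha-dystrobrevin, had 1462 and 1316 CPM (0.15, 0.06 to 0.24). Of 2 measured water channel genes, the aquaglyceroporin gene Aqp9 was higher in CCI, at 17.0 CPM from 64 UMIs against 6.94 CPM from 7 UMIs in WT (1.29, 0.17 to 2.66).

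Among 8 measured potassium channel genes, Kcnk10 was higher in CCI (42.8 CPM, WT 26.8 CPM, log2 ratio 0.68, 0.08 to 1.32), and Kcnj6 and Kcnk1 were lower. The Kcnk10 levels came from 161 and 27 UMIs, and the gene was highest in oligodendrocyte precursors, at 216 CPM in CCI and 236 CPM in WT. Kcnk1, a 2-pore channel gene whose level was highest in astrocytes, had 73.1 CPM (64.8 to 82.3) in CCI and 112 CPM (92.4 to 135) in WT, a log2 ratio of -0.62 (-0.94 to -0.29). It was the only lower gene of the 7 lists with its highest level in astrocytes. Kcnj6, a channel subunit known from dopaminergic neurons, had 29.8 and 49.6 CPM (-0.74, -1.23 to -0.22).

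Among the gap junction genes, Gjc3, which encodes a connexin of oligodendrocytes, was lower in CCI astrocytes at 57.2 CPM, against 107 CPM in WT astrocytes (-0.91, -1.25 to -0.56), and was highest in oligodendrocytes, at 507 CPM in CCI and 609 CPM in WT. Of 9 genes of acid and bicarbonate transport, Slc4a2 (-0.87) and Car14 (-0.75) were lower, both highest in oligodendrocytes. Of 11 measured genes of chloride cotransport and volume-regulated channels, 3 were lower. Slc12a2, the sodium-potassium-chloride cotransporter, had 87.2 CPM in CCI and 211 CPM in WT (-1.28, -1.53 to -1.02) and was highest in oligodendrocytes, at 1197 and 1535 CPM. Slc12a5, the neuronal potassium-chloride cotransporter, had a ratio of -0.83 and Lrrc8c, a subunit of the volume-regulated anion channel, a ratio of -1.12.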

How the data were processed

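The authors deposited UMI counts per gene and barcode for both libraries. Cell Ranger 7.1.0 made them, per the file headers, with build mm10 and Seurat also named per the submitters' processing notes. Whether intronic reads were counted, the strand setting and the annotation release are not given in the sources used here. Intronic counting and a deeper library both change how many nuclei show a UMI.

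Barcodes were kept with at least 200 genes, 500 UMIs and at most 20% mitochondrially encoded UMIs, which removed 0 CCI and 690 WT barcodes. Scrublet in Scanpy 1.11.5, run within each library at an expected rate of 10%, called 934 CCI (6.80%) and 1296 WT barcodes (9.65%) doublets, and these were left out. Within each library, counts were put on a log scale and standardized. From 2000 variable genes without the 8 genes, 30 principal components, 20 neighbours and Leiden clusters at a resolution of 1 (scikit-learn 1.9.0, leidenalg 0.10.2) were computed, and neurons were clustered again.

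Clusters were named for the class with the highest mean relative marker level (CPM over the highest cluster CPM plus 50), if this was at least 0.25 and 1.5 times the next class, with at least 3 markers in 5% of nuclei, 20 nuclei, and not outnumbered by foreign markers in its 10 leading genes. No member was a marker.

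UMIs were summed per class and library. Ratios carry exact conditional, levels exact Poisson and shares exact Clopper-Pearson 95% intervals (SciPy 1.17.1), which cover counting error only. The ratio and interval code was tested on simulated data. A level of 0 allows up to 3 counts. Named are the 8 genes, the genes of each list past 1.5-fold or otherwise the 2 with most UMIs, and the 5 genes nearest in pattern. Some genes that this rule names are not reported here. Neuron subclusters 6, 13, 15, 17, 20 and 22 were singled out after their values were seen. The members, lists, markers and the cluster naming rule were chosen with earlier results of these data known. Alternatives covered cell filters, doublets, resolution, clustering, TMM scaling (edgeR 4.0.16), DESeq2 1.42.0 size factors, a marker gate, thinning and depth ranges.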

Additional observations from a re-analysis of the deposited data

How the results depend on the processing

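With 1 library per condition, leaving out a replicate was not possible, and no replicate spread exists. No paired analysis was possible because each condition had 1 library. None of the 8 genes was past 1.5-fold in astrocytes, and the count became 1 with at least 500 genes per nucleus (Mlc1, log2 ratio 0.59), 1 with astrocytes thinned to 1000 UMIs (Mlc1, 0.75, from 198 WT nuclei, with Kcnj16 at -0.73 and an interval of -1.42 to 0.03) and 2 without doublet removal (Kcnj16, -1.05, and Mlc1, 1.16). Without doublet removal the main WT astrocyte cluster of 1551 nuclei no longer met the naming rule, which left 99 WT astrocytes. When clusters highest for astrocyte markers were kept regardless of that rule, an alternative chosen after seeing the data, Mlc1 was at 0.42 and Kcnj16 at -0.03.

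The summed ratio of 0.05 became -0.036 without doublet removal, -0.052 at 1000 UMIs, -0.14 with equal weight for both astrocyte clusters and 0.0019 with astrocytes of 500 to 2000 UMIs, and the cause was not tested. The range of 500 to 2000 UMIs did not match depth, since 509 of its 522 CCI nuclei and 196 of its 1261 WT nuclei had at least 1000 UMIs. At 1000 to 2000 UMIs the sum was 5615 CPM (5454 to 5780) in CCI and 5932 CPM (5622 to 6253) in WT. Genes past 1.5-fold were not counted at that depth. Mlc1 stayed positive in all 15 alternatives, between 0.42 and 1.16. The astrocytic share of 68.6% in CCI became 56.0% without doublet removal and 59.5% without Slc4a4, a sum chosen after seeing the data. The WT share of 64.4% became 6.50% without doublet removal, 63.2% with at least 500 genes, 63.0% with a marker gate and 53.0% without Slc4a4. Genes past 1.5-fold numbered 1148 with at least 20 UMIs, 641 with at least 100 (9.61% of 6668) and 1229 with at least 1. TMM and DESeq2 scaling shifted every ratio by -0.03 and -0.04. Depth limits the WT library most: 102 Mlc1 and 63 Kcnj16 UMIs were counted in its astrocytes.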

Other observations

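Slc4a4 had a higher CPM in deeper astrocytes of both libraries. In CCI astrocytes it was 3934 CPM (3798 to 4072) at 1000 to 2000 UMIs, 4108 CPM (4025 to 4191) at 2000 to 4000 UMIs and 4681 CPM (4513 to 4854) at 4000 UMIs and over. In WT astrocytes it was 3937 CPM (3798 to 4079) at 500 to 1000 UMIs and 4319 CPM (4056 to 4595) at 1000 to 2000 UMIs. The shared depth of 1000 to 2000 UMIs held 509 CCI nuclei and 196 WT nuclei. There the Slc4a4 level in CCI was below that in WT, and the ends of the intervals overlapped narrowly. Kcnj16 in WT astrocytes was 47.9 CPM (33.8 to 66.1) at 500 to 1000 UMIs and 108 CPM (69.7 to 159) at 1000 to 2000 UMIs, from 37 and 25 UMIs, whereas CCI astrocytes had 55.3 CPM (40.3 to 74.0) at 1000 to 2000 UMIs. Gja1 did not follow this order, with 368 CPM in the deepest CCI astrocytes and 406 CPM at 1000 to 2000 UMIs. Mlc1 at 1000 to 2000 UMIs had 145 CPM (120 to 174, 118 UMIs) in CCI and 77.6 CPM (46.0 to 123, 18 UMIs) in WT. The ends of these intervals overlapped narrowly too, as did those of Kcnj16. No ratio with its own interval was computed within this depth range. Overlap of levels therefore does not settle whether Slc4a4, Kcnj16 or Mlc1 differed there beyond counting error, or was past 1.5-fold.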
